A study of Sus scrofa with 2 samples.

Results

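The MHC class II genes of the pig (swine leukocyte antigen, SLA) were followed in ovarian tissue of 2 breeds. The 6 genes SLA-DRA, SLA-DRB1, SLA-DQA1, SLA-DQB1, SLA-DMA and SLA-DMB were found through the RefSeq accessions that the array gives its probes. They are 6 of the 2459 genes that could be named in this way, with 26 of 43597 probes. RNA came from ovary freed of corpora lutea, taken on day 15 of the estrous cycle, from female conventional pigs (Yorkshire sows) and female minipigs (Midget pigs) at an age of 10 months, with 5 animals per breed. One single-colour (Cy3) Agilent porcine array was hybridised per breed, and the sources used here do not state whether its RNA was from 1 animal or pooled. The comparison asks how the ovaries of the 2 breeds differ in gene expression late in the cycle. With 1 array per breed there are no replicates, so no difference was tested, every value describes these 2 arrays, and the number of arrays limits the precision.

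Class II molecules are pairs of an alpha and a beta chain that carry peptides from ingested protein to the surface of antigen-presenting cells, where CD4+ T cells read them. DR and DQ are the presenting molecules, while DM works inside the cell and exchanges the invariant chain peptide for other peptides. DR beta and DQ chains are highly polymorphic, whereas the DR alpha chain varies little between animals. In the ovary, class II is known mainly from resident macrophages and dendritic cells, and its expression can be induced in other cells by interferon gamma.

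The deposited files disagree on which array belongs to which breed, and this decides every direction. Scanner files with processed intensities assign the arrays one way, and a shorter log2 table assigns them the other way. For 5613 probes with 1 spot each, the minipig values of that table are the log2 scanner intensities of the conventional pig array less 1 fixed number, to within 7.46e-07. Its conventional pig values match the minipig array likewise, to within 5.24e-07. Breeds are named throughout as the scanner files have them. Under the labels of the table every sign given here is the opposite one, and the files alone do not settle which labels are right. The arrays lay on the same slide at different positions, so position and breed cannot be told apart.

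Both arrays held 43803 spots other than controls, and no spot was saturated. The 75th percentile of intensity was 494 on the minipig array against 513 on the conventional pig array. Levels are log2 intensities with this percentile set to 0, and a difference is always the conventional pig array minus the minipig array. Well above background were 88.1% of the probes on the minipig array and 85.2% on the other. Markers of granulosa cells (7 of 9 listed genes named on the array), theca (5 of 5) and oocytes (6 of 8) each had a probe well above background on both arrays. Most probes of either array passed as well, so these markers are no strong check of the ovarian label. Technical error was taken from spots of the same probe. Over 42 repeated probes the SD of a difference between 2 single spots was 0.25 on the log2 scale, and over the 11 of them at least as bright as the dimmest class II probe it was 0.17.

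All 6 class II genes gave signal above background on the array of each breed. Each of their 26 probes was well above background on either array. So were 88.1% of all probes for the minipig and 85.2% for the conventional pig, and detection alone does not set class II apart. Intensities of the 26 probes ran from 199 to 6105 for the minipig and from 244 to 8148 for the conventional pig. By the median over their probes, 5 of 6 genes were higher on the conventional pig array (all but SLA-DRB1, which turned to 0.02 after median centring), against 52.5% of the 2363 named genes with a value. The differences ran from -0.14 for SLA-DRB1 to 0.91 for SLA-DMA, with a median of 0.44 over the 6 genes, beside 0.04 over all named genes and -0.12 over all probes. Of the 26 probes, 21 were higher on the conventional pig array, against 42% of all 38883 probes with a value. After median centring, which moved the median of all probes by 0.15, the count was 25 beside 52.3% of all probes, and after quantile normalization, with a shift of 0.11, it was 17 beside 49.4%. Relative to the median of all probes the differences were 1.03 for SLA-DMA, 0.89 for SLA-DQB1, 0.67 for SLA-DQA1, 0.44 for SLA-DMB, 0.42 for SLA-DRA and -0.02 for SLA-DRB1. Probes of 1 gene share a transcript and are not independent.

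**Figure D1:**
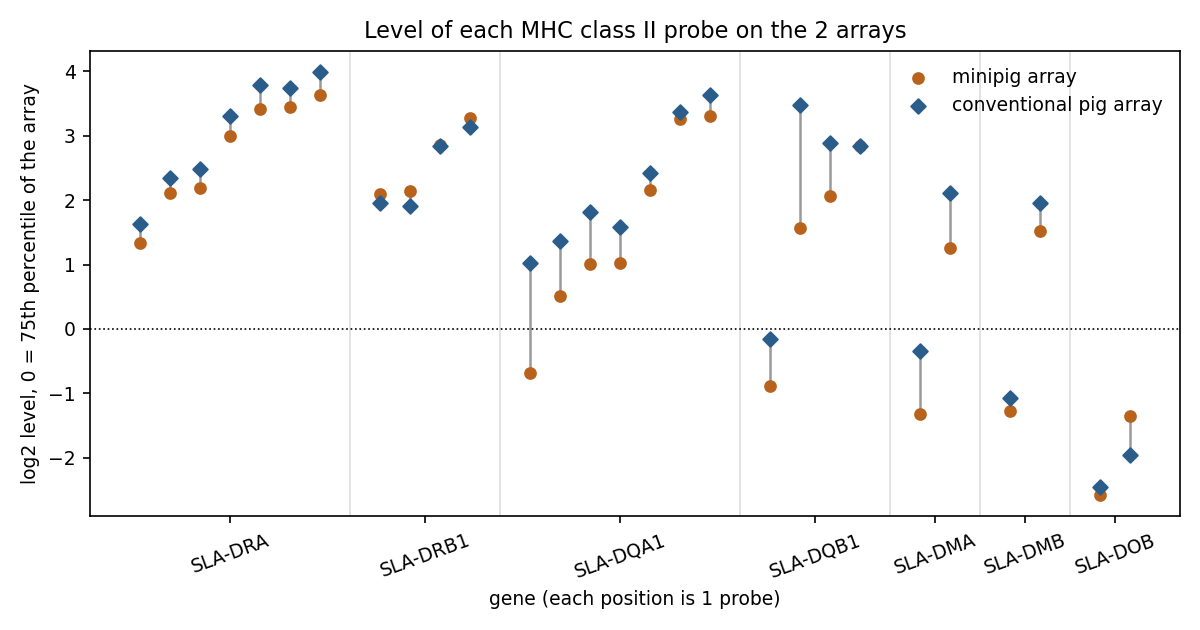
Log2 level of each class II probe on the minipig array (circles) and the conventional pig array (diamonds), with 0 at the 75th percentile of each array; a grey line joins the 2 values of a probe. The SLA-DRA pairs have nearly equal gaps, while those of SLA-DQA1 and SLA-DQB1 range from almost none to 1.71 and 1.92.

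None of the 6 class II genes reached 2-fold by its median, whereas 11.7% of the named genes did so with the conventional pig array higher and 7.96% with the minipig array higher. After median centring SLA-DMA passed 2-fold (1.07), as did 15.4% of the named genes in that direction. At 1.3-fold, 3 of the 6 genes (SLA-DMA, SLA-DQB1 and SLA-DQA1) were higher on the conventional pig array, beside 31.4% of all named genes, and none on the minipig array, beside 24%. SLA-DMB and SLA-DRA joined them after median centring, which gives 5 of 6 beside 39.5%. With normexp background correction SLA-DMB (0.45) joined them, which gives 4 of 6 beside 26.1%. With the brightest probe of each gene SLA-DQA1 (0.33) and SLA-DQB1 (-0.0017) fell short, while SLA-DMB (0.43) passed. After quantile normalization SLA-DRB1 (-0.40) passed 1.3-fold with the minipig array higher. Among probes, 2 of 26 (7.69%) reached 2-fold with the conventional pig array higher, beside 7.48% of all probes. The count was 5 of 26 beside 9.89% after median centring, and 3 of 26 beside 7.97% after quantile normalization. None did so with the minipig array higher, beside 8.94% of all probes. A difference of more than 0.50, which is 2 SD of that between repeated spots, was found for 9 of the 26 probes, all higher on the conventional pig array, beside 17.9% of all probes in that direction. These were 4 probes of SLA-DQA1, 3 of SLA-DQB1 and 2 of SLA-DMA, while no probe of SLA-DRA, SLA-DRB1 or SLA-DMB passed this limit.

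SLA-DRA, the alpha chain of the DR molecule (NM_001113706), was slightly and very evenly higher on the conventional pig array. Its 7 probes read 1253, 2126, 2241, 3958, 5294, 5411 and 6105 on the minipig array. On the conventional pig array the same probes read 1590, 2615, 2866, 5087, 7076, 6870 and 8148. Every probe was thus brighter on the conventional pig array, by nearly the same factor. The log2 differences lay between 0.25 and 0.37 with a median of 0.30 (SD 0.04 over 7 probes), or 1.23-fold. The size of this step depends on the scaling: it was 0.11 after loess and 0.0099 after quantile normalization.

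SLA-DRB1, the beta chain that pairs with SLA-DRA (NM_001113695), did not share this step. Its 4 probes read 2118, 2181, 3591 and 4768 on the minipig array against 1996, 1924, 3670 and 4500 on the conventional pig array. The arrays were nearly level, and after scaling all 4 probes were a little lower on the conventional pig array, though not after median centring. The differences ran from -0.23 to -0.02 with a median of -0.14 (SD 0.09 over 4 probes). This value depends on the scaling: it was 0.02 after median centring, -0.27 with normexp, -0.34 after loess and -0.40 after quantile normalization. The probes of the 2 DR chains did not overlap: the lowest SLA-DRA probe lay 0.27 above the highest SLA-DRB1 probe. How many other pairs of genes show such a gap was not counted. The median of SLA-DRA exceeded that of SLA-DRB1 by 0.44, and by 0.41 to 0.55 under 8 alternative settings. Related DRB loci and pseudogenes lie nearby and could bind these probes, so the value of SLA-DRB1 is uncertain.

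SLA-DQA1, the alpha chain of the DQ molecule (NM_001114062), was higher on the conventional pig array with all 7 probes, but by very different amounts. On the minipig array the probes read 4731, 2209, 4880, 1005, 989, 704 and 307. In the same order they read 5267, 2741, 6382, 1531, 1797, 1319 and 1044 on the conventional pig array. After scaling, the first probe was almost level between the arrays and the last was 3.28-fold brighter on the conventional pig array. The log2 differences were 0.10, 0.26, 0.33, 0.56, 0.81, 0.85 and 1.71, with a median of 0.56 (SD 0.54 over 7 probes).

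SLA-DQB1, the DQ beta chain (NM_001113694), had the same kind of spread. Its 4 probes read 3528, 268, 2072 and 1460 on the minipig array against 3656, 461, 3779 and 5720 on the conventional pig array. After scaling, 1 probe was level between the arrays and another was 3.78-fold brighter on the conventional pig array. The differences were -0.0017, 0.73, 0.81 and 1.92, with a median of 0.77 (SD 0.79 over 4 probes). With the probe that is brightest over both arrays in place of the median, the value of SLA-DQB1 was -0.0017 and that of SLA-DQA1 was 0.33. The ranges of the 2 DQ chains overlapped almost entirely, and which chain had the larger median changed with this choice. A pseudogene, SLA-DQB2, lies next to SLA-DQB1, and whether its transcripts bind these probes was not tested.

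**Figure D2:**
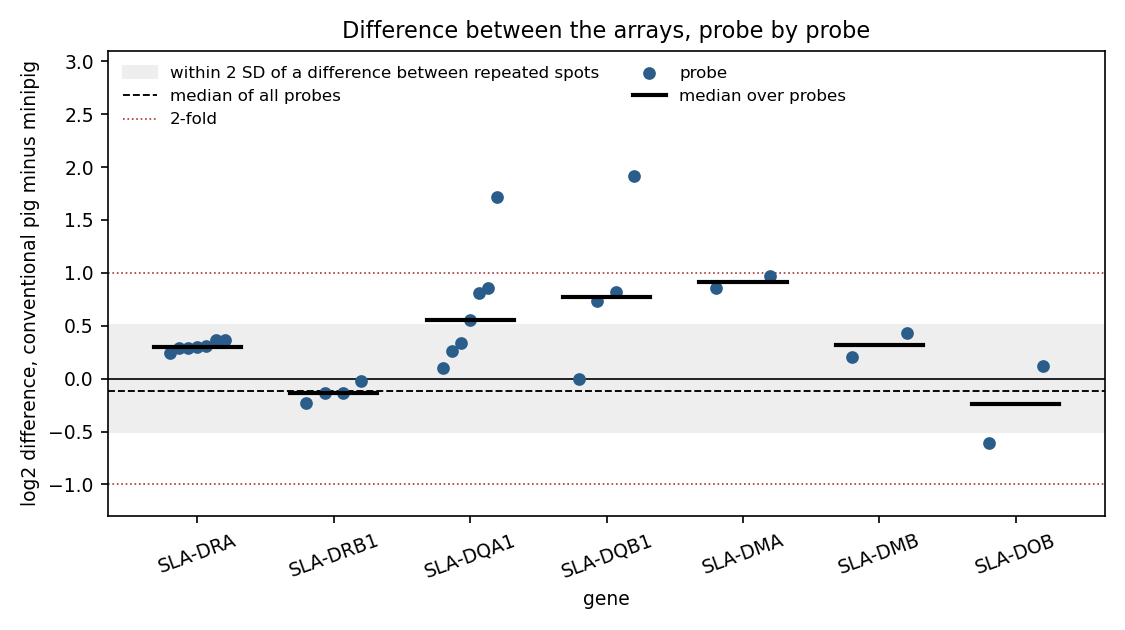
Log2 difference, conventional pig minus minipig array, of each probe (points) with the median of each gene (bars); the grey band is 2 SD of a difference between repeated spots (0.50 either way), the dashed line the median of all probes and the dotted lines 2-fold. SLA-DMA has the highest median at 0.91 (SLA-DQB1 with normexp), and only 1 probe each of SLA-DQA1 and SLA-DQB1 lies past 2-fold.

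The DM genes encode the 2 chains of the peptide exchange factor, and both had positive differences. The 2 probes of SLA-DMA (NM_001004039) read 1180 and 199 on the minipig array against 2219 and 404 on the conventional pig array. Both were brighter on the conventional pig array by almost the same factor, with log2 differences of 0.86 and 0.97 and a median of 0.91, or 1.88-fold. This was the highest median of the 6 genes except with normexp, where SLA-DQB1 (0.80) exceeded it (0.78), and it reached 1.07 after median centring. The 2 probes of SLA-DMB (NM_001113707) read 204 and 1416 on the minipig array against 244 and 1981 on the conventional pig array. Their differences were 0.21 and 0.43, with a median of 0.32. The probes of the 2 chains did not overlap, and the median of SLA-DMA exceeded that of SLA-DMB by 0.59, or by 0.33 with normexp background correction. With only 2 probes per chain such a gap carries little weight, and its share among other pairs of genes was not counted.

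SLA-DOB, a chain of the DO molecule that restrains DM, was the only further class II gene that could be named. Its 2 probes read 193 and 82.8 on the minipig array against 132 and 93.5 on the conventional pig array. They disagreed in sign, with differences of -0.61 and 0.12, so that no direction can be given from the median of -0.24. Of the 9 other class II genes listed, the remaining 8 had no probe named through RefSeq and were left aside.

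How far probes of a gene lay apart was set beside other named genes with the same number of probes, all well above background on both arrays. The 7 probes of SLA-DRA spanned 0.12 on the log2 scale, and 0 of 26 other genes with 7 probes had a smaller span. The 7 probes of SLA-DQA1 spanned 1.61, and 25 of the 26 others were narrower. The median span of the other genes with 7 probes was about 0.4 (0.39 without SLA-DQA1 and 0.41 without SLA-DRA). The DR alpha and DQ alpha chains thus stood at opposite ends of this order, although both were measured by the same number of probes. Among genes with 4 probes, SLA-DQB1 spanned 1.92 and 128 of 131 others were narrower, while SLA-DRB1 spanned 0.21 and 16 of 131, or 12.2%, were narrower. SLA-DMA (0.11) and SLA-DMB (0.22) were narrower than the median of 0.27 for genes with 2 probes. A wide span was also found at a class I locus: SLA-3, with 7 probes from -1.47 to 0.18, spanned 1.65, more than all 26 others. Other class I genes spanned 0.54 (SLA-8, 4 probes) and 0.25 (SLA-5, 2 probes, with a median difference of -0.13). The sequences of the probes were not used here, so the fit of single probes to the alleles of each breed was not tested.

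**Figure D3:**
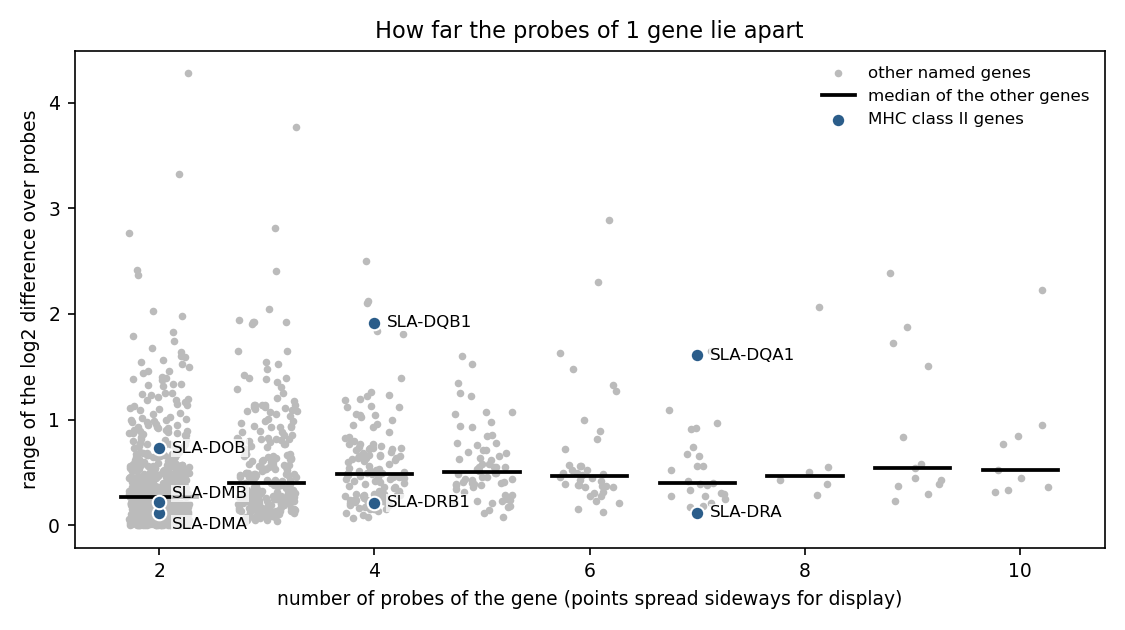
Range of the log2 difference over the probes of a gene (vertical) against its number of probes (horizontal), for named genes with 2 to 10 probes with every probe well above background on each array; bars are medians of the genes other than class II. SLA-DQA1 at 1.61 and SLA-DQB1 at 1.92 lie near the top of their columns, and SLA-DRA at 0.12 is at the foot of its column.

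Class II genes lie side by side in the MHC, interleaved with genes of class I peptide supply, and the RefSeq table of Sscrofa11.1 was used for their order only. Along this order the measured genes were SLA-DRA, SLA-DRB1, SLA-DQA1, SLA-DQB1, SLA-DOB, PSMB8, TAP1, PSMB9, BRD2, SLA-DMB and SLA-DMA. The differences did not run in 1 direction along the region. PSMB9, a subunit of the immunoproteasome, was higher on the conventional pig array (0.81, 2 probes from 0.74 to 0.88), as was PSMB8 (0.37, 3 probes). TAP1, a subunit of the peptide transporter, had probes on both sides of 0 (-0.52 and 0.41). BRD2, a chromatin reader that lies between PSMB9 and SLA-DMB, had a median of -0.41, with 3 probes from -1.97 to -0.06. Beyond SLA-DMA, SLC39A7 stood at 0.31 and HSD17B8 at -0.41.

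**Figure D4:**
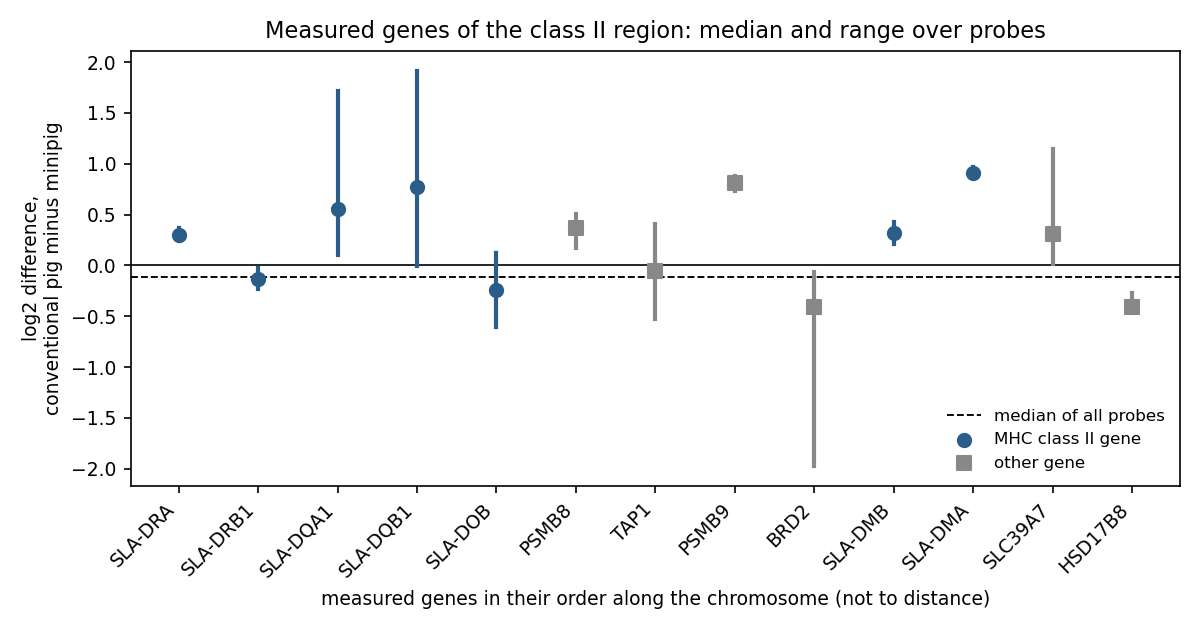
Log2 difference (symbols, median over probes) and range over probes (lines) of the measured genes in their order along the chromosome, from SLA-DRA to HSD17B8; distances are not to scale and the dashed line is the median of all probes. Neighbours differ in sign, for example SLA-DRB1 at -0.14 (0.02 after median centring) beside SLA-DQA1 at 0.56, and BRD2 at -0.41 beside SLA-DMB at 0.32.

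The list of class II loading and processing genes had a value for 9 of its 18 genes, of which 8 were higher on the conventional pig array, beside 52.5% of all named genes, with a median of 0.66 beside 0.04. Of the 9, 3 passed 2-fold in that direction, against 11.7% of all named genes, and 0 in the other, against 7.96%. These 3 were IFI30, the lysosomal thiol reductase that unfolds antigens (2.01, probes 1.86 and 2.17), the cathepsin CTSH (1.93, probes 1.92 and 1.95) and the cathepsin CTSD (1.3, probes 1.19 and 1.42). CD74, the invariant chain that occupies the class II groove until DM acts, was not among them. Its 2 probes read 1275 and 577 on the minipig array against 1196 and 805 on the conventional pig array, with differences of -0.15 and 0.43. The proteases CTSB and CTSZ were at 0.25 and 0.27, the protease inhibitors CSTB and CST3 at 0.996 and -0.05, and the lysosomal membrane protein LAMP1 at 0.66. Lysosomal proteases serve all cells and are not markers of antigen presentation.

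Regulators of class II transcription had a value for 3 of 14 listed genes, with a median of -0.24 that ran from -0.33 with only probes well above background on each array to -0.09 after median centring. NFYB, a subunit of the factor that binds the class II Y box, was at -0.24 with 4 probes, all lower on the conventional pig array, and the coactivator EP300 was at -0.41. SPI1, a myeloid transcription factor, was brighter on the conventional pig array by at least 1.39-fold, its minipig signal being not well above background. CIITA, the master regulator of class II, was not analysed here.

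Genes of the interferon gamma response, the main inducer of class II, had a value in 16 of 20 cases: 9 differences were positive, beside 52.5% of all named genes, and 7 negative. Their median was 0.14, and it ran from 0.08 with normexp to 0.39 with the brightest probe of each gene. Past 2-fold were the adhesion molecule ICAM1 (1.70), the kinase JAK2 (1.002) and, with the opposite sign, the chemokine CXCL10 (-1.04), while the receptor chain IFNGR2 was at 0.95, the chemokine CXCL9 at -0.95, JAK1 at -0.63 and IFNG itself at -0.12. Median centring adds 0.15 to every difference, so that IFNG and TAP1 turn positive under it. CXCL10 then falls short of 2-fold, and IFNGR2 passes it. Class I presentation genes had values for 9 of 17 and a median of 0.33 beside 0.44 for class II, with 5 higher and 4 lower. B2M, the class I light chain, was at 1.17, the chaperone CALR at 0.95 and the heavy chain genes SLA-8, SLA-3, SLA-7 and SLA-6 at 0.33, -0.20, -0.08 and -0.08, of which the last 2 are smaller than the 0.15 that median centring adds. Class I loci are closely related, so the locus that each probe reads is uncertain. Among 9 of 12 T cell costimulation genes the median was 0.30 (0.16 with normexp, 0.45 after median centring). Of these, 5 were higher, among them CD86 (0.84), CTLA4 (0.60) and ICAM1, which is also in the interferon list and alone past 2-fold here. The 4 lower ones included CD80 (-0.33), ICOS (-0.31) and CD58 (-0.19). CD80, CD86, CTLA4 and ICOS were dim, with levels from -4.42 to -2.38 over the 2 arrays. The 2 probes of CD86 were at 0.40 and 1.29.

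For markers of the cells that carry class II, summed levels are given in units of the 75th percentile, first for the minipig and then for the conventional pig array. Each is a sum over the genes of a list on the array, with a gene at the median of its probes on the linear scale, and the gene with most signal is named although signals of different probes are no measure of relative abundance. Of 11 macrophage markers 6 had a value, 3 higher on each array, with a median of -0.03 (0.12 after median centring) and a summed level of 8.31 and 9.89, led by CD163 (TYROBP by the median of log2 levels) and by AIF1. CD14, the endotoxin co-receptor, was at 1.04, AIF1 at 0.74, TYROBP at 0.10, GP91-PHOX (CYBB) at -0.16 and CD163 at -0.25, and SIGLEC1 was brighter on the minipig array by at least 2.65-fold, since its conventional pig signal was not well above background. Of 11 dendritic cell markers 4 had a value, namely CD83 (1.11), XCR1 (0.27), CCR7 (-0.05) and CD1.1 (-0.46), with a median of 0.11 (0.33 with the brightest probe) and a summed level of 4.43 and 8.68, led by CD83. The pan-leukocyte markers ITGB2 and LCP1, 2 of 4 listed, were at 0.14 and 0.02 (median 0.08, and 0.04 to 0.24 under the alternatives, summed level 0.986 and 1.07, led by ITGB2). Of 8 T cell markers 6 had a value, with a median of 0.02 (from -0.18 without a filter on dim probes to 0.18 after quantile normalization) and a summed level of 1.26 and 1.19, led by LCK (CD3E on the conventional pig array by the median of log2 levels): CD3D (0.28), CD2 (0.24), CD3E (0.22), CD8A (-0.18), LCK (-0.27) and CD3G (-1.31, with 1 of 2 probes a bound). CD79A, at -0.11 (0.04 after median centring), was the only B cell marker of 8 with a value. CXCL11, CD40LG and CD4, the receptor that binds class II, did not rise well above background on either array.

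Markers of other ovarian cells were examined on the same scale, where 52.5% of all named genes had a positive and 47.5% a negative difference, with 11.7% and 7.96% past 2-fold. Corpora lutea had been removed from the tissue. All 6 luteal markers were well above background, but so were 88.1% of all probes for the minipig and 85.2% for the conventional pig. Whether any luteal tissue remained was not tested. All 6 luteal markers were higher on the conventional pig array, with a median of 2.47 and 4 past 2-fold. Their summed level was 109 and 315, led by OXT and by STAR. HSD3B1 was at 3.11, STAR at 3.07, PTGFR at 2.48, SCARB1 at 2.46, RLN2 at 0.45 and OXT at 0.33. The endothelial markers ENG (0.80), PECAM1 (0.55) and CDH5 (0.36), 3 of 7 listed, had a median of 0.55 and a summed level of 3.86 and 6.17, led by ENG. Granulosa markers, 7 of 9, had a median of -1.77 (-2.96 with the brightest probe of each gene) and a summed level of 48.7 and 23.1, led by HSD17B1 and by FST. FSHR (-3.63), HSD17B1 (-2.96), INHA (-2.61), INHBA (-1.77, probes -3.91 and 0.37) and AMH (-1.03, probes from -2.22 to -0.09) were past 2-fold, and FST (-0.08) and CYP19A1 (0.09) were not. Median centring adds 0.15 to every difference, so that AMH falls short of 2-fold and FST turns positive. All 6 measured oocyte markers of 8 were higher on the minipig array, with a median of -1.13 and a summed level of 3.76 and 1.55, led by ZP4, and MOS (-1.75), ZP4 (-1.41) and ZP3 (-1.33) were past 2-fold. The 5 theca markers were at -3.76 (INSL3), -1.74 (CYP17A1), -0.62 (LHCGR), 2.63 (CYP11A1) and 3.07 (STAR, also a luteal marker), with a summed level of 106 and 200.1, led by INSL3 and by STAR. The part of such differences in tissue make-up in the class II values was not tested, and in bulk RNA fewer cells of a type cannot be told apart from less RNA per cell.

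**Figure D5:**
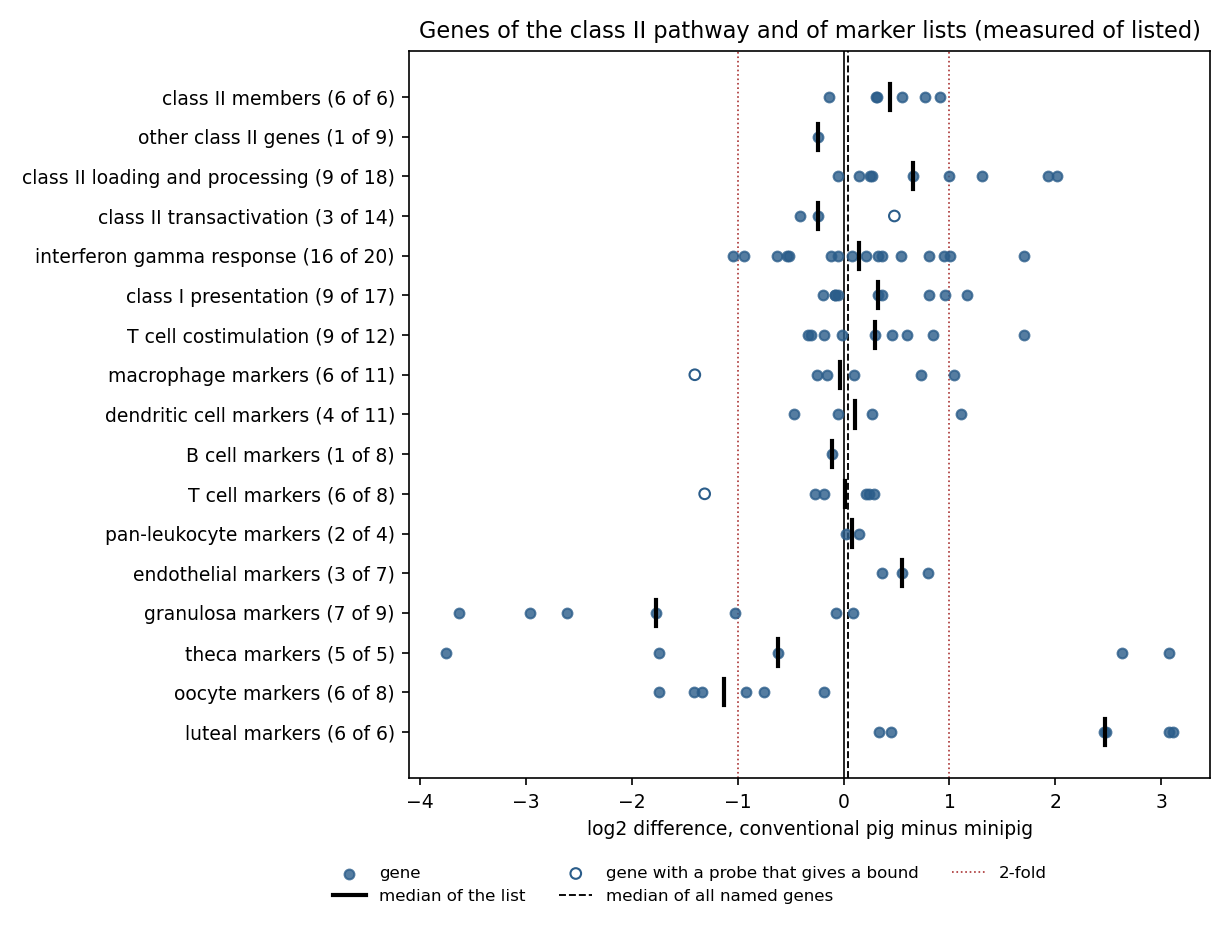
Log2 difference, conventional pig minus minipig array, of each gene with a value (points; open where a probe gives a bound) in the class II pathway and marker lists, with the median of each list (bars), the median of all named genes (dashed) and 2-fold (dotted). The class II genes and the loading list lie mostly right of 0 with medians of 0.44 and 0.66, macrophage and T cell markers have medians of -0.03 and 0.02 (signs that change with the processing), and luteal and granulosa markers lie far apart at 2.47 and -1.77.

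The named genes whose median difference was closest to that of the 6 class II genes, among those with 2 or more probes all well above background on both arrays, were DUOX2, YIPF5, COL8A1, GSK3B and KLF10, each at 0.44. Likeness here is the distance between log2 differences over 2 arrays, and 124 of 1154 such genes lay within 0.1, so the pattern is a common one.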

How the data were processed

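Ovarian RNA of 2 breeds was measured with 1 single-colour Agilent array each. The authors read the arrays with Feature Extraction 10.7.3.1 and deposited background-corrected spot intensities. A table of log2 values was also deposited, normalized in GeneSpring by a method not given in the sources used here. Its minipig and conventional pig columns have medians of -0.93 and -0.66, and each is the log2 intensity of 1 array less a constant. These constants differ from the log2 75th percentile of the matching array by only 0.0021 and 0.0052. The table is thus scaled almost as the intensities are here. From the intensities, control and outlier spots were removed, repeated spots were averaged after taking log2, and the 75th percentile of each array was subtracted. A probe well above background on 1 array alone gave a bound: its level there was set against the dimmest level that still passed on the other array, or against its own if that was brighter. Its own level was the brighter one for SPI1, so that value is a plain difference. Genes were summarised by the median of their probes. Through unversioned accessions, the RefSeq table for Sscrofa11.1 named 5577 of 43597 probes (12.8%), and none of its coordinates were printed.

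No p-value was computed. Named were the class II genes, each measured gene of the loading and transactivation lists, the 3 highest genes on each array and all past 2-fold of the other lists, and the 5 genes of most similar difference. Beyond this rule FST, OXT, RLN2, IFNG, SLA-5, SLA-8, the neighbours along the chromosome and the genes not well above background were chosen after their values were seen. One listed gene is not reported here. The class II genes and all lists were chosen with earlier results of these data known. Alternatives were normexp correction (offset 50), median centring, quantile and loess normalization (span 0.3), 2 filters on dim probes, the brightest probe, the mean over probes and the deposited log2 table. Counts at 1.3-fold and above 0, the comparison of paired chains, the spans set beside other genes and the order along the chromosome were added after seeing the data. The steps were tested on simulated data. Software was Python 3.11.15, numpy 2.4.6, pandas 2.3.3, statsmodels 0.14.6, matplotlib 3.10.9, R 4.3.3 and limma 3.58.1.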

Additional observations from a re-analysis of the deposited data

How the results depend on the processing

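The median over the 6 class II genes stayed between 0.32 and 0.59 under 8 other settings and when each gene was left out in turn, a choice made after seeing the data. The median of all probes moved by 0.15 under median centring and by 0.11 under quantile normalization. Quantile normalization took SLA-DRA from 0.30 to 0.0099 and SLA-DRB1 from -0.14 to -0.40; the cause was not tested. With the brightest probe SLA-DQB1 was at -0.0017. Median centring raised the number of probes past 2-fold, with the conventional pig array higher, from 2 to 5, since it adds the same amount to every difference; it turned SLA-DRB1 to 0.02. The deposited log2 table holds only probes that differ by at least 2-fold (100% of them), so a count of such probes in it is fixed by that choice. It lists 1 probe each of SLA-DQA1 and SLA-DQB1, by its own labels at -1.71 and -1.91 (0 higher in the conventional pig and 2 in the minipig). Matching of probes by gene name was not run, because the scanner files used here hold accessions only. No paired analysis was possible because each breed has 1 array.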
